A study of Mus musculus with 17 samples.

Results

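H3K27ac peaks were described at 10 genes of neural RNA-binding splicing regulators in mouse hypothalamus: Rbfox1, Rbfox2, Nova1, Nova2, Elavl2, Celf2, Ptbp2, Qk, Srrm4 and Khdrbs2. The genes were listed by name, and every peak that overlapped the RefSeq span of a gene extended by 10 kb on either side (its window) was assigned to it by at least 1 bp. This gave 436 of the 183678 peaks of the list, 0.237%, over windows that add up to 4028.1 kb. The series profiled hypothalamus with 3 bulk CUT&Tag samples for H3K27ac, labelled as biological replicates, and with Paired-Tag, which reads a histone mark and RNA in the same nuclei, in 7 sub-libraries of DNA and 7 of RNA for H3K27ac and H3K27me3. The labels give no strain, sex, age or treatment for any of these groups. The values below come from the single list of peaks of the bulk samples, and the data of the Paired-Tag sub-libraries were not analysed here. The list holds 1 fold enrichment and 1 −log10 q per peak, deposited by the authors for the samples together, so no value has a spread between animals, the depth behind a peak is unknown, and no test between groups of samples was possible.

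H3K27ac, acetylation of lysine 27 on histone H3, marks active promoters and enhancers, and CUT&Tag maps it with an antibody that tethers the Tn5 transposase to marked chromatin. Splicing regulators of this kind bind short RNA elements in and around alternative exons, and depending on where they bind they promote or block inclusion of the exon. Together they set the exon choices that separate neurons from other cells, in genes of synapses, ion channels and the cytoskeleton. In tissue made of many cell types, a mark in fewer cells and a weaker mark per cell cannot be told apart.

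All 10 genes carried H3K27ac, but they differed widely in how many peaks they held and in how densely these lay. At least 1 peak lay in the window of 10 of 10 genes, where 79.2% of 21887 protein-coding genes had one. Within 1 kb of an end of the span, 10 of 10 genes had a peak, against 69.2% of protein-coding genes. Of the 10 genes, 8 are 100 kb or longer, and among the 2429 protein-coding genes of that length 2363 had a peak in the window and 86.3% had one at an end. All 10 also had a peak with a fold in the upper quartile of the list, 4.24 or more, which 73.9% of protein-coding genes had. That share was not taken among genes of 100 kb or more, which hold more peaks per gene. The number of peaks ran from 6 at Ptbp2 to 130 at Rbfox1, with a median of 34, against 4 for all protein-coding genes. The splicing regulators are long genes, with a median span of 171 kb, and protein-coding genes of 100 kb or more had a median of 26 peaks.

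Per length the 10 genes lay on both sides of other genes. Their median was 15.1 peaks per 100 kb of window, against 12.1 for protein-coding genes of 100 kb or more and 9.47 for all protein-coding genes. Nova1 (24.7 peaks per 100 kb), Nova2 (23.6), Rbfox2 (22.4), Elavl2 (19.2) and Srrm4 (19.0) stood between the 79.1 and the 91.7 percentile of all protein-coding genes. Celf2 (11.1), Qk (9.03), Rbfox1 (8.40) and Ptbp2 (6.98) stood between the 41.3 and the 54.8 percentile, and Khdrbs2 (2.35) at the 24.8 percentile. Set against protein-coding genes of 100 kb or more, all stood lower, although Nova2 (39.4 kb) and Ptbp2 (65.9 kb) are themselves shorter than that. Nova1, Nova2, Rbfox2, Elavl2 and Srrm4 were there between 69.0 and 85.3. Celf2, Qk, Rbfox1 and Ptbp2 were between 34.6 and 47.2, and Khdrbs2 was at 15.1. Peaks covered from 1.36% of the window at Khdrbs2 to 18.4% at Nova2, with a median of 8.97%, against 7.54% for protein-coding genes of 100 kb or more. At Rbfox1, the longest of the 10 and rank 14 by length among protein-coding genes, 4.96% of the window was covered.

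**Figure D1:**
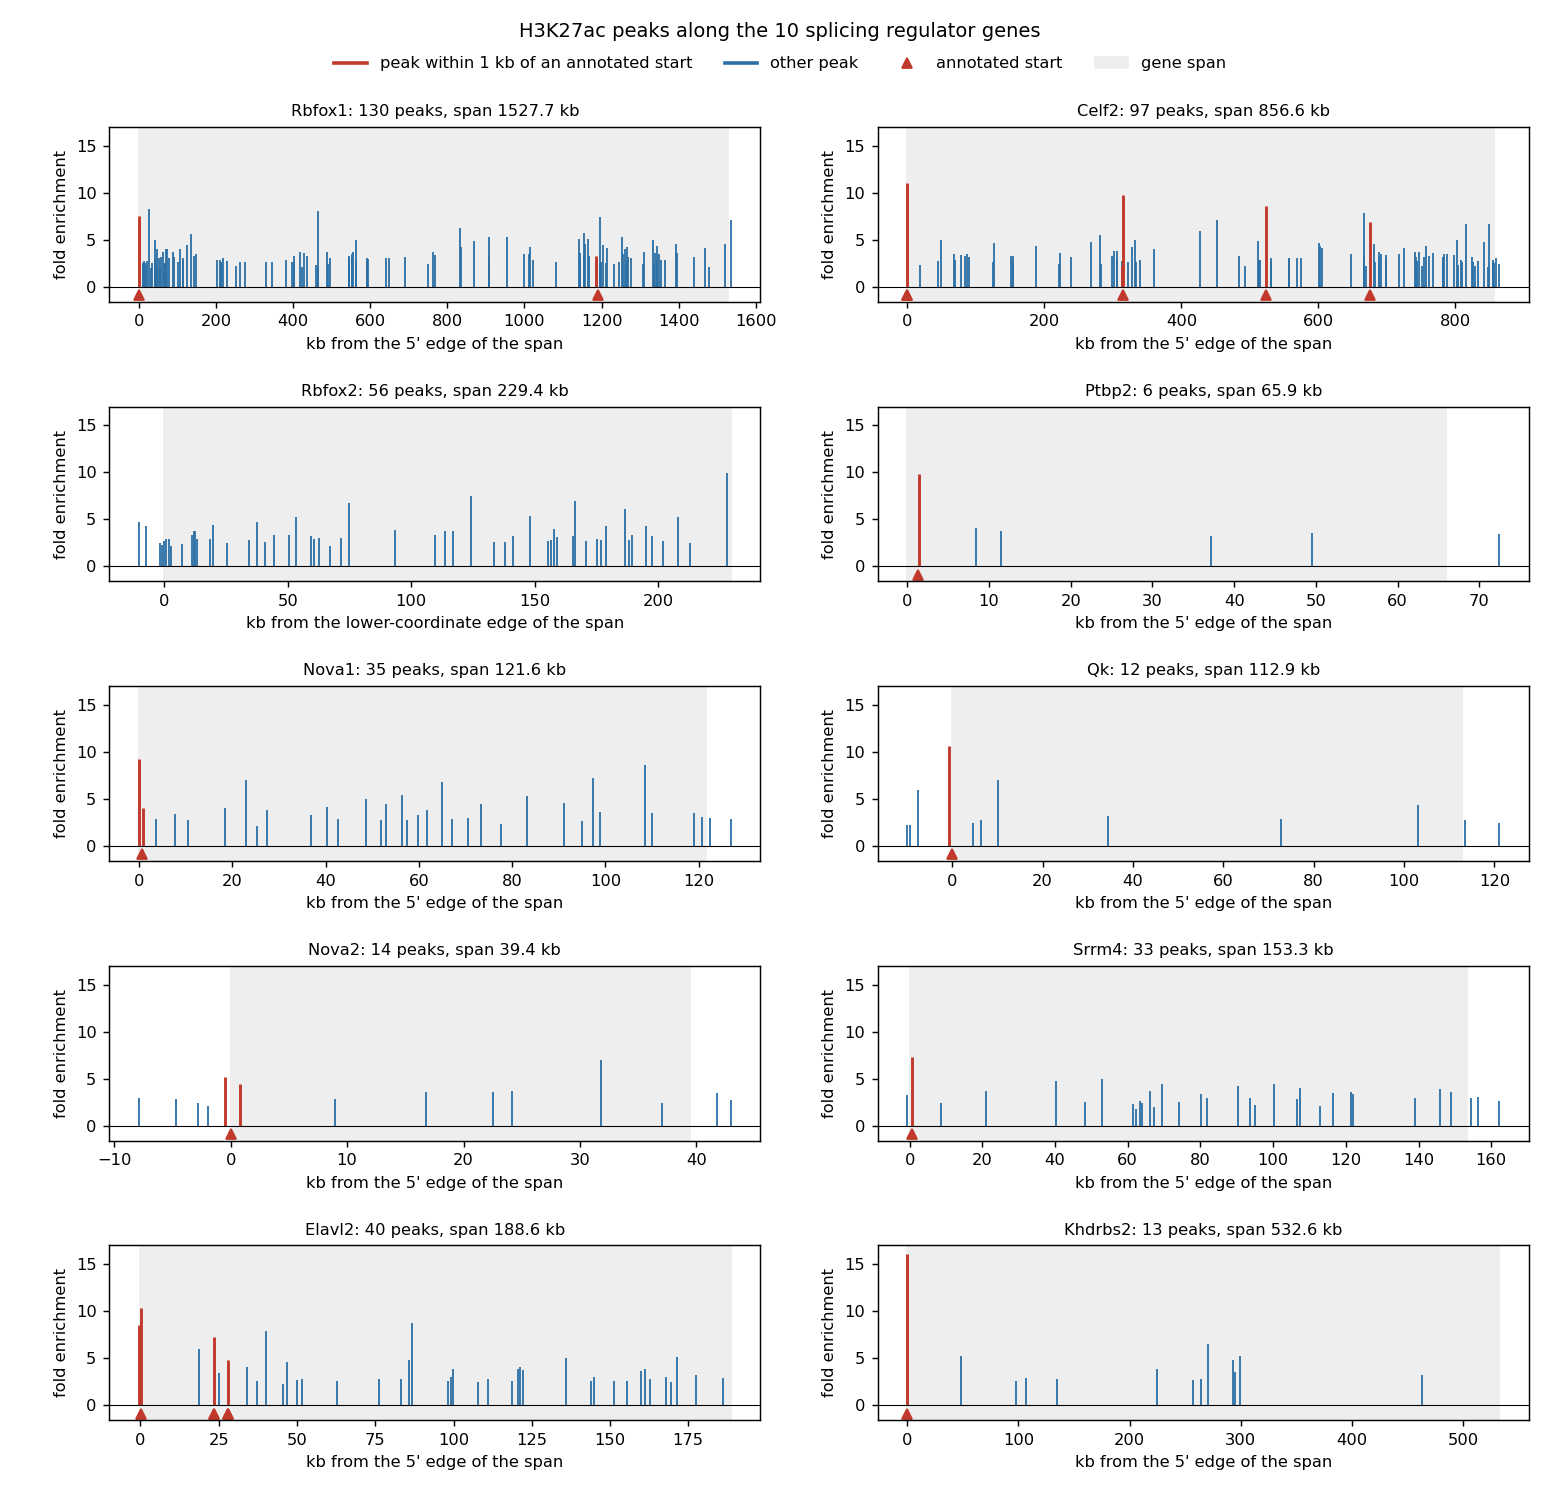
Each vertical line is an H3K27ac peak, drawn at its summit, with its fold enrichment as height. The x axis is the distance in kb from the 5′ edge of the gene span (for Rbfox2 from the lower-coordinate edge), grey marks the span, red triangles the annotated starts and red lines peaks within 1 kb of a start. Khdrbs2 has 13 peaks over 532.6 kb with the highest line at its start, while Rbfox1 has 130 peaks in groups along 1527.7 kb.

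**Figure D2:**
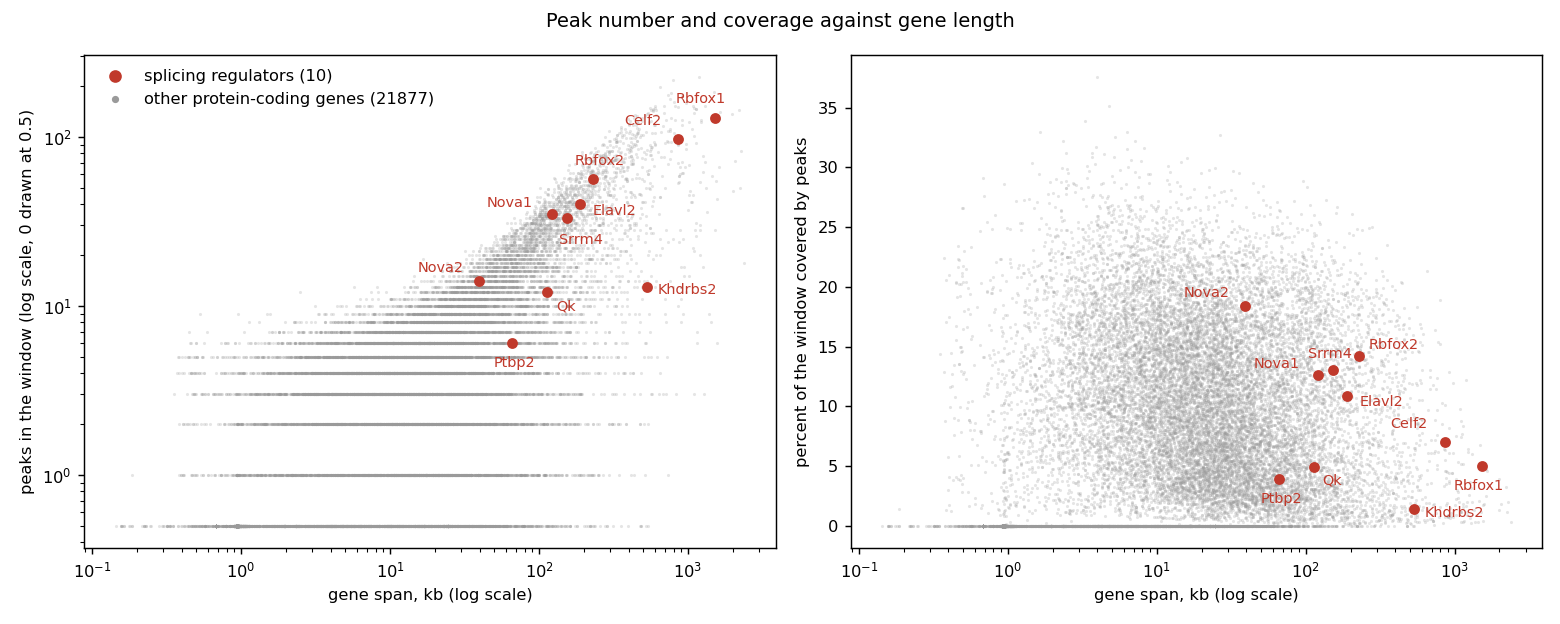
The left panel plots peaks per window and the right panel the percent of the window covered by peaks, both against the gene span in kb on a log scale. Red points are the 10 splicing regulators and grey points other protein-coding genes. Khdrbs2, with 13 peaks, lies low for its length, and Rbfox2, with 56, lies high.

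Most peaks of the 10 genes lay inside the genes, which make up most of the searched windows, and were of middling strength. Those at annotated starts had a higher median fold and were wider. Of the 436 peaks, 407 (93.3%) overlapped a gene span. All 436 had a median fold of 3.21, against 3.18 for the whole list, and were 507 bp wide at the median, against 557 bp. The 19 peaks within 1 kb of an annotated start, of which some serve several starts, had folds of 2.22 to 16.1 with a median of 7.55, a median width of 1127 bp and a median −log10 q of 149. The other 387 inside the genes and away from the edges had a median fold of 3.21, a median width of 505 bp and a median −log10 q of 11.4. The 7 peaks within 1 kb of a 3′ edge of the span ranged in fold from 2.54 to 3.11. In the upper quartile of fold stood 102 of the 436 peaks, 23.4%, of which 82 lay inside a gene and 16 at a start.

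Rbfox1 and Rbfox2 encode regulators that bind the GCAUG element in introns beside alternative exons, and both are expressed in neurons, Rbfox2 in many other tissues too. Rbfox1, on chr16:5884793-7412480, held 130 peaks with folds between 1.96 and 8.28 and a median of 3.13. Its strongest peak was not at an annotated start: chr16:5911492-5912577, 27.3 kb inside the gene, had a fold of 8.28 and a −log10 q of 194. A second inner peak, chr16:6348403-6349807, 464 kb from the 5′ edge, had 8.11 and 125. The peak at the outermost start came after them with 7.55 and a −log10 q of 173, and it was the widest of the gene at 2388 bp. The second annotated start of Rbfox1, about 1190 kb further in, lay 482 bp outside the nearest peak, whose fold of 3.30 was the lowest of all start regions in the set.

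The peaks of Rbfox1 were unevenly spread. With the span cut into 10 equal bins from 5′ to 3′, 34 of the 129 summits inside it fell in bin 1, 18 in bin 8, which holds the second start, and 20 in bin 9, while bins 5 and 7 held 5 each. The longest stretch of the gene without a peak was 62.0 kb. Long noncoding RNA genes annotated inside the first part of the span (Gm52234, Gm36902, 1700123O21Rik and Gm36824) overlapped 5, 2, 4 and 5 of the peaks, so their gene is uncertain. Rbfox1 has few CpG sites before either start. The bases before both starts are shown because both are marked and yet are CpG-poor, with CpG in capitals; they come from RefSeq promoter windows in build mm10 (GRCm38.p6).
Rbfox1 start at 5884793, chr16:5884543-5884792, plus strand: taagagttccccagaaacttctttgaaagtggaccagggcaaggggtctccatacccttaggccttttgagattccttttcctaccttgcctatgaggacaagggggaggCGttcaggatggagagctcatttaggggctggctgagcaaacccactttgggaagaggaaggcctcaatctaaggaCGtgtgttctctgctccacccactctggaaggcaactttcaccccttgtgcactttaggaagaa
Rbfox1 start at 7069835, chr16:7069585-7069834, plus strand: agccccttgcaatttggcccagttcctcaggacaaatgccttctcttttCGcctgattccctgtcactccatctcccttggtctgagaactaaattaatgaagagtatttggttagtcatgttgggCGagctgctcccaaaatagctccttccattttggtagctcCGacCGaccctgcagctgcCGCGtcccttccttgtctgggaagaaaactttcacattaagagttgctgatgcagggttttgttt
The first stretch holds 2 CpG sites and the second 6.

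Rbfox2, on chr15:77078990-77308434, was denser, with 56 peaks in a span of 229.4 kb, folds between 2.20 and 9.89 and a median of 3.20. Its peaks covered 14.2% of the window, against 4.96% at Rbfox1. The strongest peak, chr15:77305753-77307425, had a fold of 9.89, a −log10 q of 228 and a width of 1673 bp, and it ended 1009 bp short of the higher-coordinate edge of the span, just outside the 1 kb limit. At the lower-coordinate edge lay 3 peaks with folds of 2.27, 2.65 and 2.96. Inner peaks at chr15:77202994-77203969 (fold 7.54), chr15:77245379-77246565 (7.01) and chr15:77152403-77154096 (6.76) stood at or above the 91.2 percentile of the whole list. Of the 51 summits in the span, 26 lay on the lower-coordinate side of its middle and 25 on the other. Near the lower-coordinate edge 5 peaks overlapped the noncoding gene 1700109K24Rik.

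Nova1 and Nova2 encode KH-domain proteins that bind clusters of YCAY elements and were first known as antigens of a paraneoplastic neurological disorder. In mouse brain Nova1 is known for expression in hypothalamus, midbrain, hindbrain and spinal cord, and Nova2 for neocortex. Both were marked, and at both the annotated start lay in a gap between a pair of peaks. Nova1, on chr12:46697895-46819480, held 35 peaks with folds of 2.17 to 9.29 and a median of 3.54. The peak upstream of its start, chr12:46818916-46820245, had a fold of 9.29 and a −log10 q of 472, above 99.4% of the list. The one downstream, chr12:46818108-46818762, had 4.07 and 101, and the start lay 5 bp from it and 149 bp from the upstream one. This is the only start listed for Nova1. The 5′ edge of its span, 0.713 kb further upstream, lay inside the upstream peak and not in the gap. Inside Nova1, chr12:46710682-46711100 had 8.67 and chr12:46721863-46722834 had 7.24.

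Nova2, on chr7:18925888-18965319, held 14 peaks with folds of 2.11 to 6.93, of which 7 overlapped the span and 7 lay only in the flanks. The upstream peak, chr7:18925129-18925752, had a fold of 5.15 and a −log10 q of 197. The downstream peak, chr7:18925983-18927109, had 4.41 and 132, and the start lay 136 bp and 95 bp from them. The highest fold of Nova2, 6.93, was at an inner peak, chr7:18957376-18958802, that also overlapped the noncoding RNA gene Gm38952. So 2 of the 19 annotated starts of these genes were between peaks, against 0.884% of 21263 annotated starts of protein-coding genes. The upstream side of the gap at Nova2 lies in the stretch before its start, shown here with CpG sites in capitals.
Nova2 start at 18925888, chr7:18925638-18925887, plus strand: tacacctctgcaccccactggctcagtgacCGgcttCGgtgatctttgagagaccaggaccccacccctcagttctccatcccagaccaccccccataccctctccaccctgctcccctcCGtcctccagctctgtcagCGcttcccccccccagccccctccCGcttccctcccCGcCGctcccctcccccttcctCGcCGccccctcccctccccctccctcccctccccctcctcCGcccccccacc
The stretch has 10 CpG sites and a GC content of 71.2%.

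Elavl2 encodes a neuronal Hu protein that binds U-rich and AU-rich elements and regulates splicing and RNA stability. Its span, chr4:91211533-91400108, held 40 peaks with its flanks, with folds of 2.24 to 10.3 and a median of 3.14. RefSeq lists 6 starts in 3 regions, and each region had a peak. The outermost start lay in chr4:91399504-91400288, with a fold of 10.3 and a −log10 q of 91.8, and a second peak, chr4:91400441-91400895, stood upstream of it with 8.52 and 66.8. The middle pair of starts, 23.6 kb from the edge of the span, lay in chr4:91376334-91376762, with 7.21 and 270. The inner starts, 28.0 kb to 28.1 kb from the edge, lay in chr4:91370999-91372611, with 4.78 and 142. By fold the regions thus order from the outermost to the innermost, and by −log10 q the middle one comes first and the outermost last. The windows of the starts held 10 CpG sites at the outermost, 18 and 19 at the middle pair and 25 to 27 at the inner ones. An inner peak away from any annotated start, chr4:91312747-91313813, 86.8 kb into the gene, had a fold of 8.80.

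Celf2 encodes a CELF protein that binds GU-rich elements and acts in splicing and in the cytoplasm. Its span, chr2:6539694-7396341, held 97 peaks with its flanks, with folds of 2.15 to 11.0 and a median of 3.24. RefSeq lists 5 starts in 4 regions spread over 675 kb, all 5 inside a peak, and the 3 strongest peaks of the gene lay at starts. The outermost region had a fold of 11.0 (chr2:7394943-7396499, −log10 q 112). The start 315 kb in had 9.75 (chr2:7080760-7081734, 149), the one 524 kb in had 8.58 (chr2:6871769-6873007, 255), and the one 675 kb in had 6.92 (chr2:6720608-6722264, 116). Fold thus ordered the 4 regions from 5′ to 3′, and −log10 q did not. Along the gene, 19 of the 94 summits in the span fell in bin 10, 16 in bin 9 and 15 in bin 4, against 8 in bin 1 and 2 in bin 5. Bases upstream of these starts are shown because only the region 524 kb in is rich in CpG, marked in capitals, while all 4 carry a strong peak. For the outermost start the stretch is the 107 bases of the window that lie before the span, which leaves out the bases next to the start, and for the others it is the 250 bases next to the start.
Celf2 start at 7396198, chr2:7396342-7396448, minus strand: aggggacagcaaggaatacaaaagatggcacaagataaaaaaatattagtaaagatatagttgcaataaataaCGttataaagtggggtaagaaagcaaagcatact
Celf2 start at 7081302, chr2:7081303-7081552, minus strand: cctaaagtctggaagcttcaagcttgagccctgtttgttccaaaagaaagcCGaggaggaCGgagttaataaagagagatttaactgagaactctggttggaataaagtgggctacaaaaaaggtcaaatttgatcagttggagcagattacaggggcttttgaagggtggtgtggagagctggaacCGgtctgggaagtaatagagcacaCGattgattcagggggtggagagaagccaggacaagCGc
Celf2 start at 6872035, chr2:6872036-6872285, minus strand: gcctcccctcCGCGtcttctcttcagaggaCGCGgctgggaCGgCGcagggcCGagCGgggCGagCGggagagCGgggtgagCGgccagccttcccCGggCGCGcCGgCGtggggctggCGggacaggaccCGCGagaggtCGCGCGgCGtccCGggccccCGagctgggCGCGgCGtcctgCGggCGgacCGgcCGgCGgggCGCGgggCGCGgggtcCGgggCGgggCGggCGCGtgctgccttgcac
Celf2 start at 6721662, chr2:6721663-6721912, minus strand: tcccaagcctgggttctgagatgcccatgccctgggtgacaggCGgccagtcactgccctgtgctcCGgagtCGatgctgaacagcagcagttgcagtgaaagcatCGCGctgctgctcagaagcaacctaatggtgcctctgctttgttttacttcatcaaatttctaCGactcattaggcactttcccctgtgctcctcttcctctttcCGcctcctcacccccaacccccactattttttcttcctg
These stretches hold 1, 5, 43 and 7 CpG sites, and GC contents of 31.8%, 47.2%, 82.8% and 54.4%, and the first, being shorter and further from its start, is not matched to the others. The whole promoter window of the outermost start holds 4 CpG sites at a GC content of 46.7%. Where several starts of a gene are listed more than 1 kb apart, a peak at every such region was found at 3 of 3 splicing regulators (Rbfox1, Elavl2 and Celf2), against 53.4% of 1465 protein-coding genes.

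Ptbp2, Qk, Srrm4 and Khdrbs2 each had 1 annotated start, with the strongest peak of the gene there. Ptbp2 encodes the neuronal polypyrimidine tract-binding protein, which takes over from Ptbp1 as neurons differentiate. It had the fewest peaks, 6, and they were of 2 kinds: chr3:119782434-119783724 at the start, with a fold of 9.81 and a −log10 q of 375, and 5 others with folds of 3.25 to 4.12 and −log10 q of at most 16.8. Its widest peak was also the one at the start, 1291 bp, and a stretch of 25.3 kb inside the gene, 38.4% of its span, had none.

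Qk encodes quaking, a STAR-family RNA-binding protein known for its role in glia and in myelination, which fails in the quaking mouse. The gene, on chr17:10206471-10319361, had 12 peaks, of which 7 overlapped the span. At its start, chr17:10318432-10320431, the fold was 10.6, the −log10 q 400 and the width 2000 bp. That peak also overlapped the neighbouring genes Gm46608 and Cahm, so the gene it belongs to is uncertain. The next highest folds were 7.01 at chr17:10309154-10309611, 10.0 kb inside, and 5.95 at a flanking peak in 1700110C19Rik. The start window of Qk had the most CpG sites of all in the set, 57.

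Srrm4 encodes a neural SR-related protein that drives inclusion of microexons. It had 33 peaks with a median fold of 3.02, against 3.18 for the whole list. Of the 33, 17 were below that list median. In the upper quartile of fold stood 5 of them, 15.2%, against 23.4% of all 436 peaks at the splicing regulators. The start peak, chr5:116590865-116592609, had a fold of 7.26 and a −log10 q of 163, and no other peak of the gene was above 4.91. At its 3′ part 3 peaks overlapped the antisense-named noncoding gene Srrm4os.

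Khdrbs2 encodes a STAR-family protein of neurons that regulates neurexin splicing. It combined the strongest peak of the set with the lowest density. The peak at its start, chr1:32172244-32173223, had a fold of 16.1 and a −log10 q of 534, above 99.5% and 99.7% of the list. The other 12 peaks had folds of 2.53 to 6.50, the highest at chr1:32442955-32444229, 271 kb into the gene. By highest fold Khdrbs2 stood at the 94.3 percentile of protein-coding genes, with genes that had no peak ranked lowest. The other 9 splicing regulators stood between the 42.2 percentile (Nova2) and the 71.0 percentile (Celf2). Set against protein-coding genes of 100 kb or more, Khdrbs2 stood at the 95.1 percentile, and the others between 18.6 (Nova2) and 66.2 (Celf2). Nova2 and Ptbp2 are themselves shorter than 100 kb. A stretch of 164 kb inside Khdrbs2, 30.8% of the span, had no peak, although the genes Gm9839 and Gm5415 are annotated there. The bases before the span, upstream of the start, are shown because they lie under the strongest peak, with CpG sites in capitals.
Khdrbs2 start at 32172722, chr1:32172472-32172601, plus strand: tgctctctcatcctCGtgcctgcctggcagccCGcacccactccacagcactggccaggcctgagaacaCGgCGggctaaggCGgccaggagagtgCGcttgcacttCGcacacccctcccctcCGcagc
They hold 8 CpG sites in 130 bases, and the whole start window of Khdrbs2 holds 26.

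At the level of annotated starts, a peak stood at every one of the set. RefSeq promoter windows, which run from 250 bases before to 50 after a start, were found for 9 of the 10 genes, with 19 starts in 15 regions. Of these 9 genes, 9 had a peak within 1 kb of a start, against 68.3% of 17492 protein-coding genes with a start in the table. Of the 19 starts, 16 lay in a peak, 2 between peaks and 1 beside a peak. Of all annotated starts of protein-coding genes, 69.2% had a peak within 1 kb, 97.0% of those with a CpG-rich window (a GC content of at least 50% and an observed over expected CpG ratio of at least 0.6) and 46.4% of the others. Among the 19 starts, 12 had a CpG-rich window. The 7 others, at Rbfox1, 3 of the 4 regions of Celf2 and the outermost start of Elavl2, had a peak too, with folds of 3.30 to 11.0. The median highest fold over the 19 starts was 7.55, against 8.64 over all 14717 starts with a peak. That median counts shared peaks once for each start, 5 of them at the middle and inner starts of Elavl2. Taken per gene, the highest fold at an end of the span had a median of 9.55 over the 10 genes, against 8.60 over all protein-coding genes with a peak there, so the order of the medians depends on the unit counted. Starts of 1 gene are not independent, and no test was made.

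**Figure D3:**
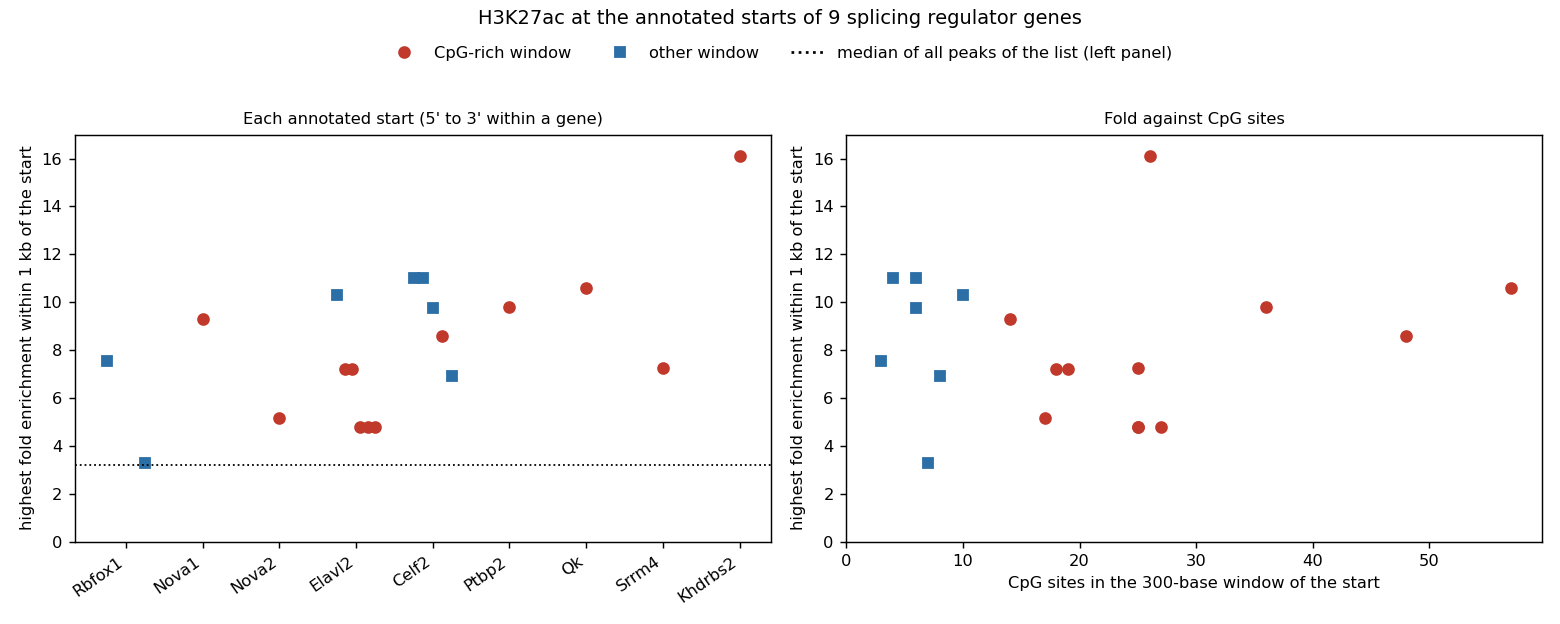
Points are the 19 annotated starts of 9 genes, red circles with CpG-rich windows and blue squares with other windows. The y axis is the highest fold enrichment within 1 kb, set against the gene (left, with starts from 5′ to 3′ and the list's median of 3.18 as a dotted line) and against the number of CpG sites in the window (right). The start of Khdrbs2 is the highest point at 16.1, and the outermost starts of Celf2, at 11.0, have 4 and 6 CpG sites.

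The order of peaks depended on which column of the list was read. The peak of highest fold was also the peak of highest −log10 q at 7 of the 10 genes, and at Nova2, Elavl2 and Celf2 it was not. The start peak of Nova2 with a fold of 5.15 had a −log10 q of 197, where the 2627 peaks of the list within 0.1 of that fold had a median of 32.9, and it stood at the 99.0 percentile among them. In contrast, the peak at the outermost start of Elavl2, with a fold of 10.3 and a −log10 q of 91.8, stood at the 4.65 percentile of peaks of its fold, whose median was 217. The outermost start of Celf2 stood at the 11.6 percentile and Khdrbs2 at the 77.6 percentile. Start peaks at the high end by this measure were those of Nova1, Nova2 and the middle and inner starts of Elavl2, between 95.1 and 99.0.

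**Figure D4:**
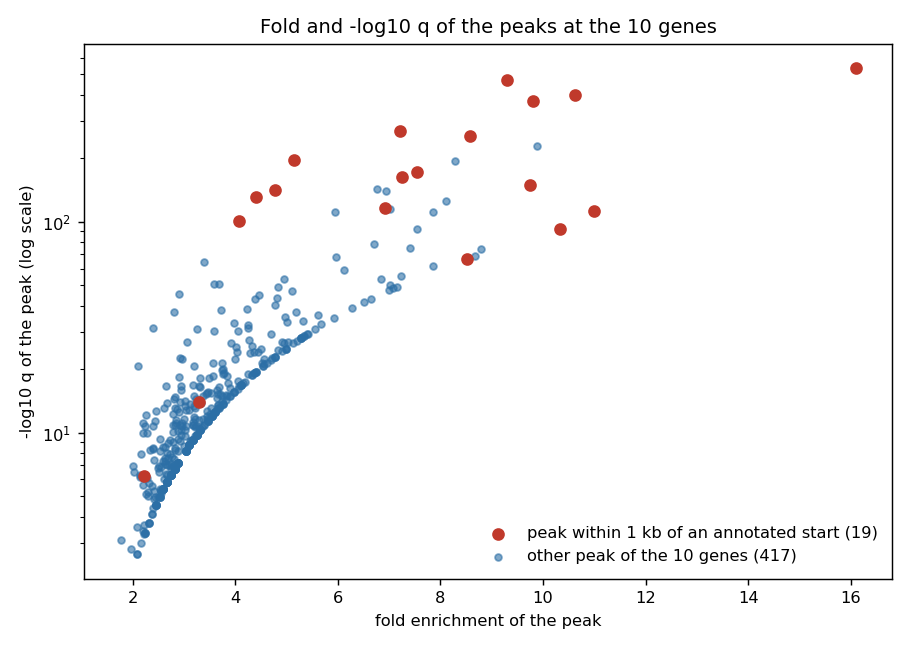
Each point is a peak of the 10 genes, with its fold enrichment on the x axis and its −log10 q on a log y axis. Red points are the 19 peaks within 1 kb of an annotated start and blue points the 417 others. Many blue points lie along a lower edge, on which −log10 q grows with fold, and the start peaks of Nova2, at folds of 4.41 and 5.15, stand well above that edge.

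Genes of the same families were also marked throughout, with large differences inside each family. Of 16 paralogs, 16 were marked at an end of the span, against 69.2% of protein-coding genes. Of the 12 with an annotated start, 11 had a peak there, all but Srrm3, against 68.3% of protein-coding genes with a start. Their highest end folds were 16.5 at Elavl4, 11.7 at Elavl1, the broadly expressed Hu gene, and 11.2 at Ptbp3. In the Hu family Elavl2 had a highest fold of 10.3 and 19.2 peaks per 100 kb, against 16.5 and 13.1 at Elavl4, 4.56 and 24.5 at Elavl3, and 14.3 and 9.94 at Elavl1. The densest CELF gene was Celf4, with 33.7 peaks per 100 kb and a highest fold of 5.33, while Celf2 had 11.1 and 11.0, and the least dense was Celf1, with 9.07 and 10.2. Rbfox3, which encodes the neuronal marker NeuN, had 104 peaks at 23.5 per 100 kb with a highest fold of 6.61, close to Rbfox2 in density. Khdrbs2, at 2.35 peaks per 100 kb, stood below Khdrbs1 at 9.76 and Khdrbs3 at 25.9, while its highest fold of 16.1 compares with 12.7 and 6.13. Ptbp2 had 6.98 peaks per 100 kb, against 2.05 at Ptbp3 and 10.0 at Ptbp1, and Srrm4 had 19.0, against 27.3 at Srrm3, 14.8 at Srrm2 and 9.47 at Srrm1.

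General splicing factors are the SR proteins, hnRNPs and core subunits that all cells use. At the median they were shorter genes than the splicing regulators, with fewer peaks and a greater highest fold. Against 10 of 10 splicing regulators, 25 of 26 general factors had a peak at an end, beside 69.2% of all protein-coding genes. The median span of the general factors was 13.9 kb, their median number of peaks 4 and their median highest fold 11.7. The splicing regulators had 171 kb, 34 and 9.85. Over all protein-coding genes these medians were 17.2 kb, 4 and 9.47, the last only of genes with a peak. In span and number of peaks the general factors were thus close to protein-coding genes as a whole. Srsf11 (14.7), U2af2 (14.2) and Snrnp70 (13.9) had the highest end folds, and Hnrnph1 had no peak at an end of its span but 7.82 at its annotated start. Of 10 other tissue-regulated factors 7 had a peak at an end, close to the 69.2% of all protein-coding genes, led by Msi2 (10.6), Rbm24 (6.68) and Mbnl2 (6.55). Mbnl1 and Rbm20 had none there but 39 and 32 peaks in the window, with highest folds of 10.5 and 15.2. The peak of Mbnl1 with a fold of 10.5 lay at an annotated start. Annotated starts were found for 6 genes of this list, and all 6 had a peak at one, against 68.3% of protein-coding genes with a start. The epithelial factor Esrp1 had 1 peak, outside its span. These lists differ in gene length, so the counts per gene are set beside each other as a description only.

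**Figure D5:**
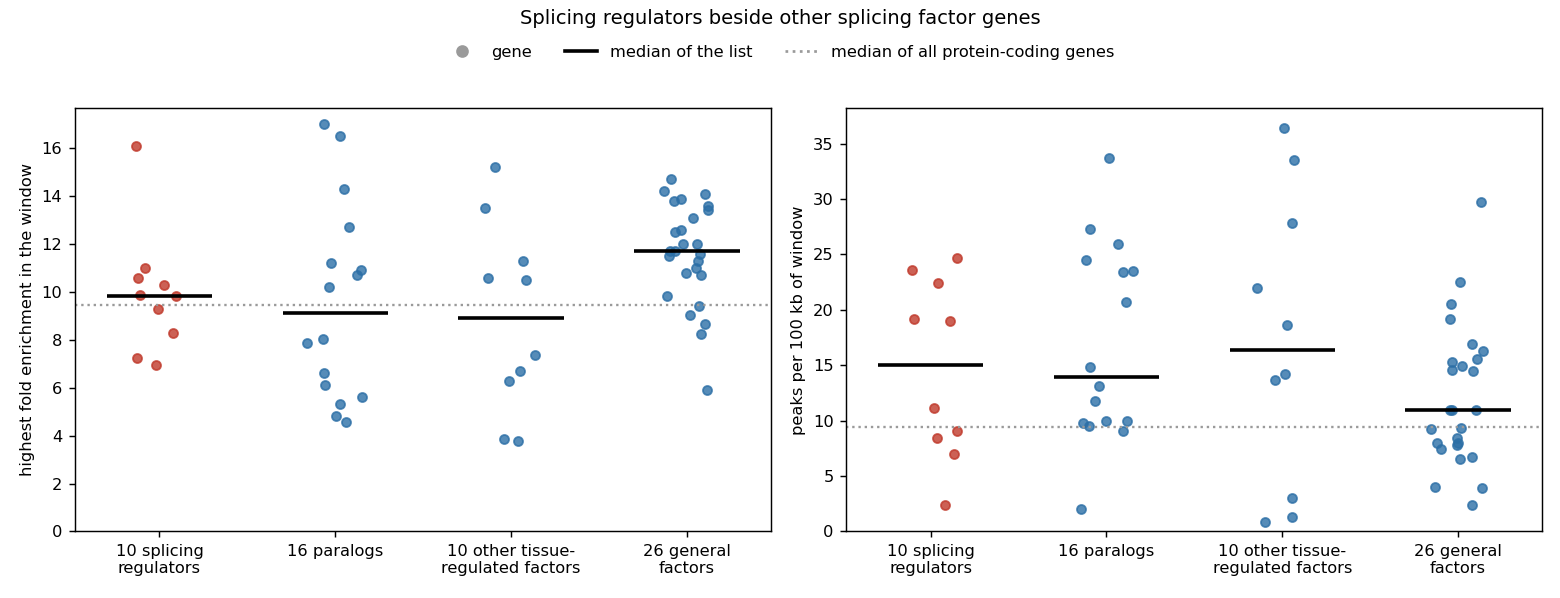
Points are genes, with the 10 splicing regulators in red and 3 other lists of splicing factor genes in blue. The y axes are the highest fold enrichment in the window (left) and the peaks per 100 kb of window (right), with bars at list medians. A dotted line marks the median of all protein-coding genes, on the left only of those with a peak in the window. The splicing regulators range from 6.93 to 16.1 in highest fold and from 2.35 to 24.7 in density, within the range of the other lists.

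As a check of the tissue, 6 of 6 hypothalamic genes (Pomc, Agrp, Nkx2-1, Otp, Sim1 and Hcrt) and 3 of 3 neuronal genes had a peak at an end. Of the 5 hypothalamic genes with an annotated start, 4 had a peak within 1 kb of it, all but Pomc. Of the glial genes, 2 of 2 of oligodendrocytes, 1 of 2 of astrocytes and 1 of 2 of microglia had a peak at an end, beside 69.2% of all protein-coding genes. None of 5 genes of other organs had one (Alb, Ahsg, Myh6, Ins2 and Cdx2), though Myh6 had 7 peaks in its window. These lists are too short to be read against that share, and which cells contributed the peaks of each splicing regulator was not tested.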

How the data were processed

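The data used are 1 list of H3K27ac peaks for the 3 bulk CUT&Tag samples; the labels name it in the description of each of these samples. The submitters' processing notes name MACS2, BWA 0.7.17, cutadapt 4.5, STAR 2.7.10a and UMI-tools 1.1.4, and build mm10. The caller's settings, its background and the rule that combined replicates are not stated in the labels, and filters could change every count. Columns were read by narrowPeak order. The fold enrichment deposited by the authors is a linear ratio of each peak and served to describe and rank peaks within the list. The −log10 q deposited by the authors gives the q-value of each peak, and the score deposited by the authors was not used for any result. Coordinates are 1-based in mm10. Gene spans and promoter windows came from RefSeq, assembly GRCm38.p6; the start was taken 250 bases into each window, and starts of 1 gene within 1 kb of the next formed 1 region.

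Overlaps, percentiles and medians were computed in Python 3.11.15 with pandas 2.3.3 and numpy 2.4.6, checked on simulated peaks against a base-by-base count. Percentiles give the percent of features with a lower value, and for highest fold genes without a peak were ranked lowest. No test was made, since there is no value per sample. The members and gene lists were chosen with earlier results of these data known. All 10 members are named; of other lists, the 3 genes of highest fold at an end, up to 3 without a peak there, and family members of the set, the last chosen after their values were seen. The alternatives tried number 9.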

Additional observations from a re-analysis of the deposited data

How the results depend on the processing

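All 10 genes kept at least 1 peak under the 7 alternatives that bear on this count, and 10 of 10 kept a peak at an end or annotated start in 6 of 7, with 9 of 10 (all but Rbfox2) when only peaks in the upper quartile of fold were used. With only peaks above the median −log10 q of the list, the total was 192 peaks in place of 436, the median per gene 18 and the median percent covered 4.98. With only the upper quartile of fold these were 102, 8 and 2.86; fewer peaks enter by construction. Without flanks the median percent covered was 9.32, and with flanks of 50 kb it was 8.09, and the share of peaks inside the span was 79.6%. Leaving out peaks at other protein-coding genes removed the start peak of Qk and gave a median highest fold of 9.55 in place of 9.85. For single genes, 23 of 70 counts moved by over 1.5 times, 4 of them by the flank, at Nova2 (7 and 27 peaks) and Qk (7 and 31), and 3 of 70 highest folds moved. The 10 kb limit falls close to further peaks at Srrm4, where the next lies 0.022 kb beyond it. No paired analysis was possible because the list has no value per replicate, and no replicate could be left out. Depth is unknown, so a place without a peak is only one without a peak in this list.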

Other observations

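Long stretches without any peak border some of these genes on their upstream side. Beyond the last peak upstream of Elavl2 no peak lay for 1930 kb, which ranks 59 among 183657 gaps between adjacent peaks, whose median is 3.76 kb. That stretch holds 13 annotated genes, 1 of them protein-coding. The gap upstream of Khdrbs2 was 938 kb (rank 203), with 9 annotated genes and none protein-coding, and that upstream of Nova1 was 342 kb (rank 735), with no annotated gene. On its other side a gap of 235 kb began at the last peak inside Khdrbs2, so part of that gap lies within the gene. The next peak on that side lay 156 kb beyond the window. By contrast the gaps on both sides of Qk, Srrm4 and Nova2 were between 2.00 and 14.9 kb. Repeats and unassembled sequence in these stretches were not examined.

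Motifs were searched on both strands of the 19 start windows and of all 21263 windows of protein-coding genes, and windows of 1 gene that overlap share their matches. The GC box GGGCGG was in 11 of 19 windows, at Nova2, Elavl2, Celf2, Ptbp2, Qk and Khdrbs2, against 46.2% of all windows, and CCAAT in 6, at Elavl2 and Khdrbs2, against 38.2%. CAGCTG was in 6, at Rbfox1, Nova1, Elavl2 and Khdrbs2, against 15.6%, and GGACAG, part of the REST element, in 5, at Elavl2, Celf2 and Ptbp2, against 22.3%. TATAAA was in 1, at the outermost start of Celf2, against 12.6%, and the NRF1 motif in 1, at Ptbp2, against 8.57%. No window held TTCAGCACC, the other part of the REST element (0.414% of all windows), TGACGTCA (2.23%) or CACGTG (7.84%). A match or its lack describes these letters in this window only.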
